A study of Vitis vinifera with 165 samples.

Results

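The last 10 days before harvest of 2012 were examined in Pinot noir berries at 50% cluster thinning, as day 42 against day 32 after veraison. Members were taken by season, thinning and time point from the labels, which gave 6 of the 165 libraries of the series, 3 on day 42 (time point 8) and 3 on day 32 (time point 7). Pinot noir is a red wine cultivar of the grapevine Vitis vinifera. The vines, of clone FPS 23 on the rootstock Freedom, stood in a vineyard near Modesto, California, and both groups shared the thinning that left 1 cluster per shoot. For each sample 60 berries of 6 clusters were picked at 8:00 in the morning and ground frozen without their seeds, so that the RNA came from skin and flesh, together called pericarp. A library thus gives the mean over many berries, which need not have been equally ripe, and the libraries of the 2 days are separate harvests from the same vineyard rather than the same berries followed in time. The 75% thinning of the study was left out of the comparison because its last sample of 2012 was taken on day 34.

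Veraison is the onset of ripening, when berries soften, colour and begin to store glucose and fructose, and sugar content is the usual measure of how far ripening has gone. Near harvest, sugar uptake slows, the berry begins to lose water and firmness, and defence and stress genes become part of the berry transcriptome. Many grapevine defence and secondary metabolism genes lie in tandem arrays of near-identical copies, which are numbered one after the other in the gene model names. In a bulk sample, a lower value can come from fewer cells that express a gene or from less RNA per cell, and these cannot be told apart.

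Sugar content was 25.35, 24.67 and 24.99 g per 100 ml on day 42, against 23.58, 22.21 and 24.01 on day 32. The 2 days did not overlap, and the means differed by 1.74 g per 100 ml (25.0 ± 0.34 and 23.3 ± 0.94, SD, n = 3 each). The exact two-sided permutation test gave p = 0.1, which is the smallest p that 3 against 3 samples allow. Replicate 2 of day 32 had the lowest sugar content of the 6 samples.

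Expression was deposited in RPKM, a read number scaled to the length of the gene model and to the size of the library. Total RPKM per library lay between 944537 and 975519 on day 42 and between 984857 and 1003480 on day 32, and 15986 to 16202 of the 29971 gene models reached 1 RPKM. RPKM holds no read counts, but the steps between low values gave the depth relative to replicate 1 of day 42, at 1, 1.18 and 1.02 for replicates 1, 2 and 3 of day 42 and at 0.68, 1.01 and 0.78 for those of day 32. Libraries of one day correlated at 0.988 to 0.989 on day 42 and at 0.985 to 0.987 on day 32, and libraries of different days at 0.973 to 0.984 (Pearson r of log2(RPKM + 1) across gene models). The table gives gene model numbers without names, and none of them matched an entry of the RefSeq gene table, so gene models are described here by number, level and neighbours, with no name or function. For the same reason the labelled tissue was not checked against marker genes of pericarp or seed.

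Between day 32 and day 42 a small part of the gene models tested passed the rule for a call, and most of these were lower on day 42. Of 20460 gene models tested, 225 (1.1%) were called, of which 53 were higher (0.259% of those tested) and 172 lower (0.841%) on day 42, at an adjusted p under 0.05 and an absolute change of at least 1 on the log2 scale (limma, Benjamini-Hochberg). The median change of all gene models tested was 0.00 log2. Smaller differences were more widespread: 4520 gene models (22.1%) had an unadjusted p under 0.05 (limma). A gene model without a call thus need not be unchanged. Fitted changes lay below 0 in 48.8% and above 0 in 48.6%. Without the fold minimum 665 gene models were higher (3.25%) and 1056 lower (5.16%). The fallers had a median of 4.97 RPKM on day 42 and 14.7 RPKM on day 32, and the risers a median of 11.1 RPKM on day 42 and 2.71 RPKM on day 32. The groups of 3 libraries did not overlap in 167 of the 172 fallers and in 45 of the 53 risers, where 17.9% of all gene models tested lay lower and 18.3% higher on day 42 without overlap.

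**Figure D1:**
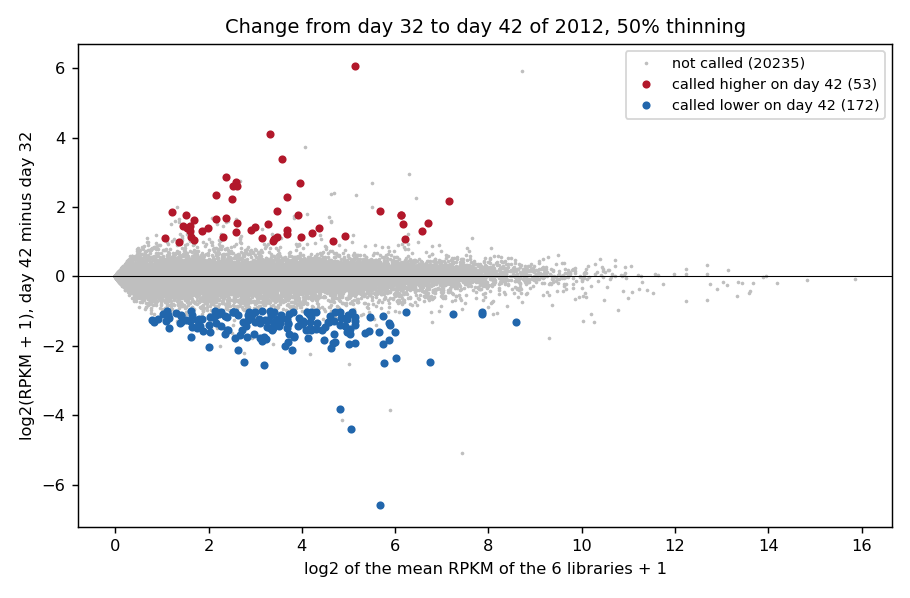
Each point is 1 of the 20460 gene models tested; the horizontal axis gives the log2 of its mean RPKM over the 6 libraries plus 1, the vertical axis its fitted change in log2(RPKM + 1), day 42 minus day 32. The 53 risers (red) and 172 fallers (blue) lie mostly at low and middle levels, and the most abundant gene models at the right lie near 0.

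Together the 172 fallers held 1813, 1586 and 2237 RPKM on day 42, against 4631, 7273 and 4317 RPKM on day 32. Replicate 2 of day 32 stood above the other 2 libraries of its day in this sum, and it was the highest of the 3 in 154 of the 172 fallers (89.5%), while it was the highest in 35.8% of the 19461 gene models above 0 on both days. Without that replicate, whose sugar content was the lowest, 54 gene models were lower and 17 higher (limma), and 53 and 15 of these were among those called with all 6 libraries. Without replicate 2 of day 42 there were 105 lower and 30 higher. The part of its lower sugar content in the result was not tested. Fitted to the 6 libraries alone, limma called 4 higher and 1 lower, with 6221 gene models under an unadjusted p of 0.05. Fitted to the 8 groups of 2012 at 50% thinning alone, limma called 32 higher and 130 lower. The calls thus rest on the spread shared with other groups of the series.

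The 53 risers together held 2126.5, 1456.5 and 1264 RPKM on day 42, against 520, 369 and 495 RPKM on day 32, with no overlap. Replicate 1 was the highest library of day 42 in 28 of the 53 (52.8%), and in 30.8% of the gene models above 0 on both days.

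The most abundant transcripts of the harvested berry did not pass the test. None of the 50 gene models with the highest mean RPKM was called by limma, where 1.1% of all gene models tested were. At that share few or no calls are expected among 50, so the count sets abundant gene models apart in no way. An unadjusted p under 0.05 was found in 8 of the 50, against 22.1% of all gene models tested (limma). Fitted changes of the 50 lay between -0.96 and 0.48 log2. VIT_08s0056g01610, the most abundant, had 66710, 57060 and 50770 RPKM on day 42, against 54410, 61450 and 68560 RPKM on day 32. VIT_05s0049g00520 had 30210, 26220 and 28540 RPKM on day 42, against 30680, 31280 and 28950 RPKM on day 32. Both sets of values overlapped between the days. The fitted change of VIT_05s0049g00520 had an SE of 2.775 log2 (limma), so its lack of a call says little of whether it changed. VIT_19s0090g01370 had 18340, 15450 and 18380 RPKM on day 42, against 20500, 19760 and 19340 RPKM on day 32. These values did not overlap, but the change was -0.20 ± 0.35 log2 (SE, limma, adjusted p = 0.835). The 2 next in abundance, VIT_08s0056g01600 and VIT_16s0022g00960, averaged 15870 and 14930 RPKM on day 42 and 15610 and 15190 RPKM on day 32.

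Some of the strongest calls rested on values of exactly 0. VIT_18s0117g00430 had 55.9, 98.1 and 51.8 RPKM on day 42 and was listed at 0 in all 3 libraries of day 32. Its adjusted p was 1.31e-08 (limma), and 0.0131 when limma was fitted to the 6 libraries alone. It was also listed at 0 in all libraries of 2013 and 2014 at 50% thinning. On day -9 of 2012 it had 42.7 RPKM in replicate 3 and was listed at 0 in replicates 1 and 2. VIT_09s0002g00440 had 12.1, 29.7 and 11.9 RPKM on day 42 and was listed at 0 in the 3 libraries of day 32. Its adjusted p was 0.0261 (limma), and leaving out any 1 library other than replicate 3 of day 42 ended the call (adjusted p between 0.0510 and 0.160). VIT_18s0166g00060 was listed at 0 in the 3 libraries of day 42 and had 134, 110 and 57.4 RPKM on day 32 (limma, adjusted p = 0.00155). A 0 in this table need not be an absence: VIT_05s0049g00520 was listed at 0 in 2 libraries of day 14 of 2014 at 50% thinning and at 41670 RPKM in the third. A fitted difference of these gene models depends on the pseudocount and is not a fold, so their RPKM values are given instead. All 3 libraries of day 32 were at 0 in 8 risers, and all 3 of day 42 were at 0 in 6 fallers. Among the called gene models with no 0 in the 6 libraries, 38 rose by 1.0 to 2.70 log2 and 160 fell, with changes of -1.0 to -2.48.

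Part of the fallers lay in runs of neighbouring gene models. A run was defined, after the values had been seen, as gene models numbered one after the other under the same prefix, called in the same direction, with at most 2 tested but uncalled gene models between any 2 of them and at least 4 called members. There were 4 falling runs with 53 of the 172 fallers, and 1 rising run with 8 of the 53 risers. Since the runs were chosen on this change, their values on these days are a description with no test. Reads of near-identical copies may have been divided between members, which are then not independent of one another, and the sum over a run is given for that reason.

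The largest run, under VIT_16s0100g, spanned 39 gene models of the table, of which 34 passed the filter on low values and 33 fell. Their summed level was 173, 268.5 and 333 RPKM on day 42, against 665, 1277 and 555 RPKM on day 32. The groups did not overlap, and the mean sum on day 42 was 0.31 times that on day 32. Changes of single members lay between -0.76 and -2.12 log2, with a median of -1.5, and member means lay between 0.33 and 31.2 RPKM on day 42 and between 2.14 and 85.9 RPKM on day 32. The member with the highest level had 22.0, 33.8 and 37.9 RPKM on day 42, against 69.4, 123 and 64.8 RPKM on day 32, a change of -1.40 ± 0.41 log2 (SE, limma, adjusted p = 0.0187). Replicate 2 was the highest library of day 32 in all 34 members, and without it 8 of the 34 were called lower. Without replicate 1 of day 42 there were 22.

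**Figure D2:**
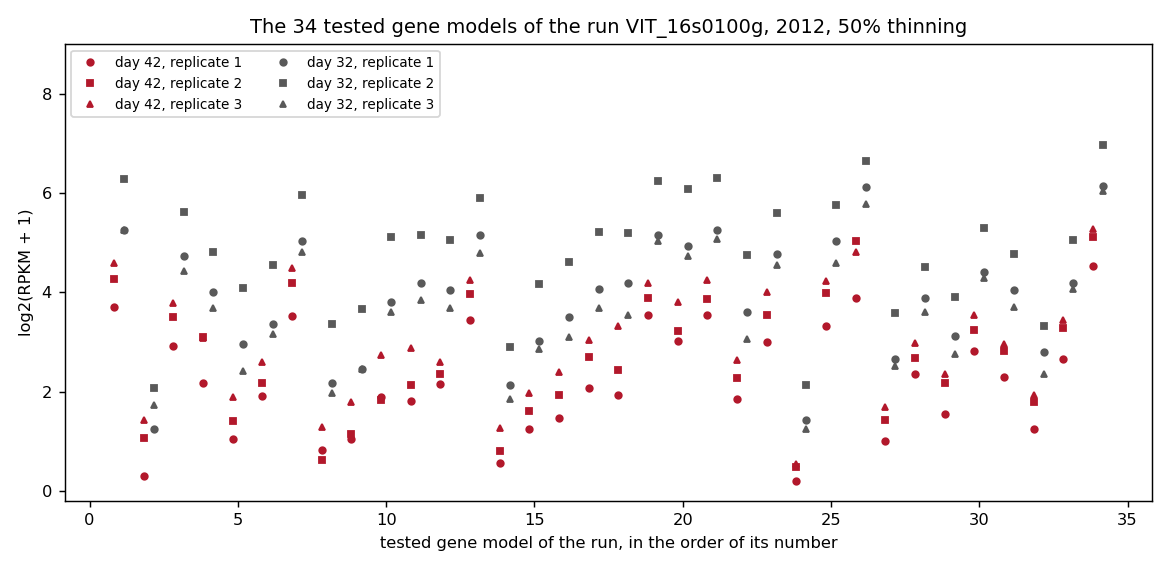
Each of the 34 positions is 1 tested gene model of the run VIT_16s0100g in the order of its number, and the vertical axis gives log2(RPKM + 1) in each library, with day 42 in red, left of day 32 in grey, and a symbol for each replicate. In 33 of the 34 gene models all 3 values of day 42 lie below all 3 of day 32, and the square of replicate 2 is the highest of day 32 throughout.

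A second run, under VIT_05s0077g, held 5 gene models, and all 5 were tested and fell. Their sum was 69.8, 115 and 108 RPKM on day 42, against 405, 825 and 332 RPKM on day 32, and the mean on day 42 was 0.187 times that on day 32. Its most abundant member had 20.8, 31.9 and 39.6 RPKM on day 42, against 148, 281 and 117 RPKM on day 32 (-2.47 ± 0.67 log2, SE, limma, adjusted p = 0.0104). None of the 5 was called without replicate 2 of day 32, 2 without replicate 1 of day 42 and 3 without replicate 3 of day 42.

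Under VIT_10s0042g 7 of 9 tested gene models fell, out of 10 in the table. The run summed to 9.41, 18.6 and 22.8 RPKM on day 42, against 53.6, 167 and 56.3 RPKM on day 32, and the mean on day 42 was 0.183 times that on day 32. One of its members, VIT_10s0042g00860, was listed at 0 in replicate 1 of day 42 and had 2.72 and 3.04 RPKM in the others, against 9.17, 21.8 and 12.0 RPKM on day 32. It fell by 2.55 on the log2 scale (SE 0.85, limma, adjusted p = 0.0420), and lost the call without replicate 1 or 2 of day 42 and without replicate 1, 2 or 3 of day 32 (adjusted p between 0.0526 and 0.242). Under VIT_16s0039g 8 of 15 tested gene models fell, out of 25 in the table, and the run summed to 58.4, 80.1 and 101 RPKM on day 42, against 161, 290 and 148 RPKM on day 32. Without replicate 2 of day 32, 2 members of each run were called, and without replicate 1 of day 42, 4 members of VIT_16s0039g.

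The rising run lay under VIT_04s0008g, where 8 of 10 tested gene models rose, out of 11 in the table. Its sum was 838.5, 437 and 382 RPKM on day 42, against 196, 120 and 158 RPKM on day 32, and the mean on day 42 was 3.5 times that on day 32. The 10 members did not overlap between the days, and replicate 1 was the highest library of day 42 in all 10. The most abundant member had 372, 179 and 141 RPKM on day 42, against 76.4, 24.0 and 51.6 RPKM on day 32 (2.18 ± 0.71 log2, SE, limma, adjusted p = 0.0370). The run was variable at other times: replicate 1 of day -18 summed to 2571 RPKM, against 304 and 224 RPKM in the other 2 libraries of that day. That library was also the highest of its day in the falling run VIT_16s0100g, with 269.5 RPKM against 26.7 and 38.9 RPKM. The number called was 2 without replicate 1 of day 42 or without replicate 2 of day 32, and between 3 and 9 without any 1 of the other libraries.

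**Figure D3:**
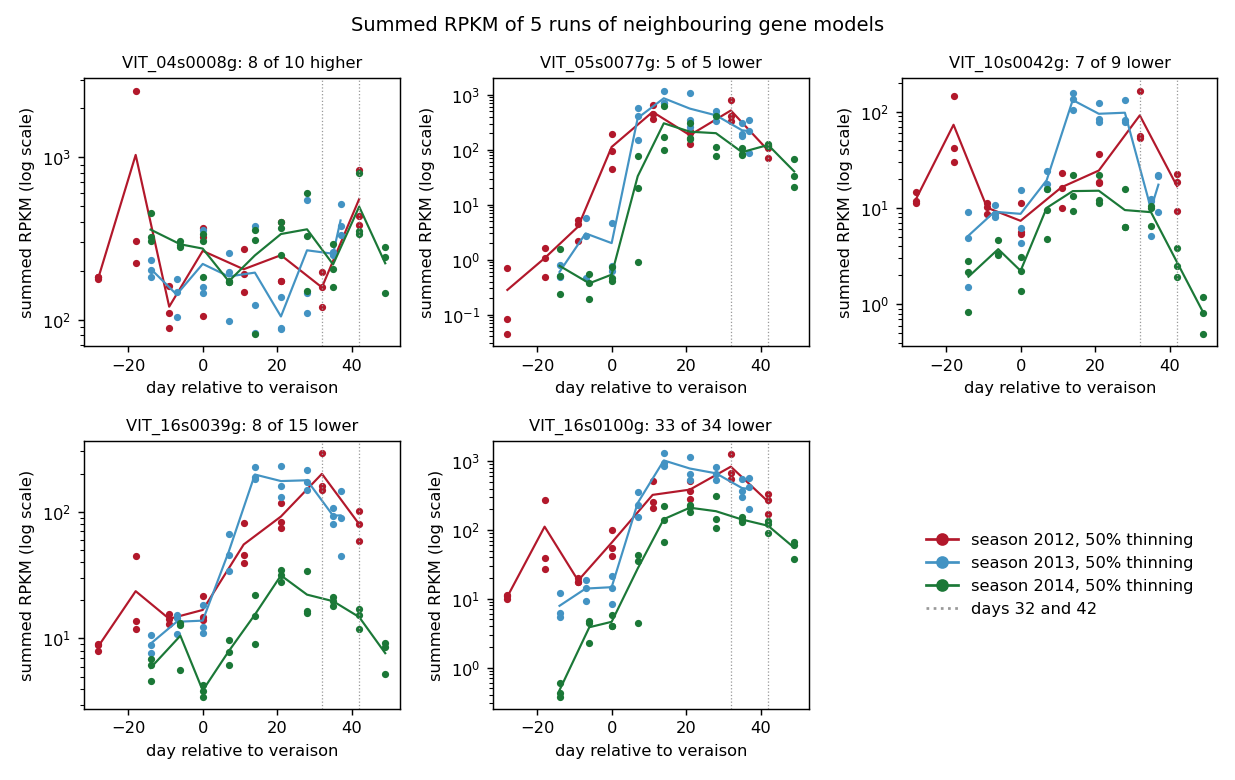
Summed RPKM of the tested members of each run (vertical axis, log scale) against the day relative to veraison at 50% thinning, with a point for each library, a line through the means of 3 libraries and a colour for each season; dotted lines mark days 32 and 42. The 4 falling runs climb after veraison in 2013 and 2014 and stand lower on day 49 than on day 35 of 2014, while the run VIT_04s0008g moves up and down through the season.

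The members of the falling runs were for the most part among the gene models that rose in ripening. In 2013 and 2014 at 50% thinning, in libraries that the harvest comparison did not use, 32 of the 34 tested members of VIT_16s0100g were higher on day 21 than on day -14, with a median change of 3.11 log2 (limma, same rule). The same was so for 5 of 5 members of VIT_05s0077g (median 5.46), 8 of 9 of VIT_10s0042g (median 1.81) and 10 of 15 of VIT_16s0039g (median 2.23), where 7.62% of all gene models tested were called higher in ripening and their median change was -0.29 log2. The rising run had 2 members called higher and 2 called lower in ripening.

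The same held for the fallers as a whole, which include the 53 fallers in the falling runs. The share among fallers outside the runs was not counted. Of the 172, 101 (58.7%) had risen in ripening, against 7.62% of all gene models tested, 25 (14.5%) had fallen, against 21.6%, and 46 had no ripening call. Of the 54 fallers called without replicate 2 of day 32, 25 (46.3%) had risen and 12 (22.2%) had fallen. Of the 53 risers, 7 (13.2%) had risen in ripening and 16 (30.2%) had fallen. The shares of all gene models tested are not matched for level. All of these shares also depend on the scaling. Quantile normalization moved the median ripening change of all gene models tested to 0.06 log2, against -0.29 log2 in RPKM, with 12.5% called higher and 14.2% called lower. Of the 172 fallers 64% had then risen and 12.8% had fallen, and of the 53 risers 10 had risen and 10 had fallen.

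Over 2012 the 101 fallers that had risen in ripening stood at a mean of 0.91 log2(RPKM + 1) on day -28, 2.45 on day 0, 3.77 on day 11, 3.70 ± 0.24 on day 21, 4.20 ± 0.53 on day 32 and 2.65 ± 0.24 on day 42 (SD, n = 3 libraries). In 2014 they stood at 3.24 on day 21, 2.44 on day 35, 2.30 on day 42 and 1.54 ± 0.26 on day 49. In 2013 they were highest on day 14, at 4.94 ± 0.25, and stood at 3.21 ± 0.55 on day 37. In 2013 and 2014 their level thus declined toward the last sample, after a high point on day 14 of 2013 and day 21 of 2014. The choice of these gene models fixes the fall from day 32 to day 42 of 2012. It also favours a high value on day 21 of 2013 and 2014. The libraries of day 32 of 2012 stood at 3.99, 4.80 and 3.81, which overlapped with 4.26, 3.61 and 3.45 on day 11. The 25 fallers that had fallen in ripening stood at 6.02 log2(RPKM + 1) on day -28, 5.62 on day 0, 4.45 on day 21, 3.48 ± 0.28 on day 32 and 2.16 ± 0.29 on day 42 of 2012. The 46 without a ripening call stood at 5.05 on day 0, 4.43 on day 21, 3.91 ± 0.24 on day 32 and 2.58 ± 0.22 on day 42.

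Among the risers the largest class, 30 gene models without a ripening call, stood at 1.75 log2(RPKM + 1) on day 0, 1.95 on day 21, 1.85 ± 0.18 on day 32 and 3.6 ± 0.15 on day 42. In 2013 the same gene models stood at 1.66 ± 0.19 on day 21, 2.17 ± 0.17 on day 28 and 2.93 ± 0.30 on day 37, and in 2014 at 1.96 ± 0.08 on day 21, 2.27 ± 0.30 on day 35 and 2.78 ± 0.19 on day 49. The 16 that had fallen in ripening stood at 5.22 on day -18, 2.53 ± 0.28 on day 32 and 4.20 ± 0.29 on day 42 of 2012.

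**Figure D4:**
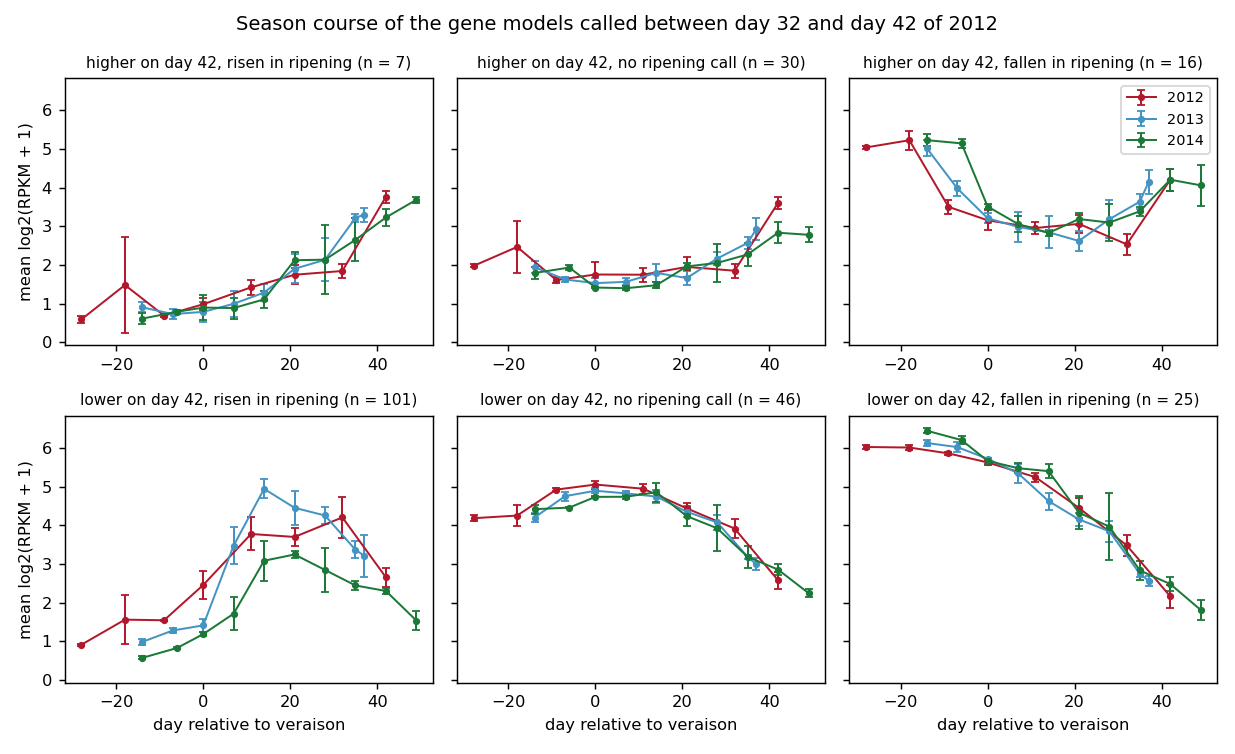
Mean log2(RPKM + 1) of the gene models called between day 32 and day 42 of 2012, split by their change from day -14 to day 21 in 2013 and 2014, against the day relative to veraison, with 1 line for each season at 50% thinning and bars for the SD over 3 libraries. The split fixes the direction up to day 21 in 2013 and 2014, and the choice of gene models fixes that of day 32 to day 42 in 2012; all 3 classes of fallers are at their lowest level after day 11 in the last sample of each season.

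The change was compared with late ripening of 2014, whose libraries at 50% thinning had 24.2 ± 0.45 g sugar per 100 ml on day 35, 25.2 ± 0.99 on day 42 and 27.4 ± 1.24 on day 49 (SD, n = 3 each). Means of 2012 were 23.3 on day 32 and 25.0 on day 42. By mean sugar, both intervals of 2014 thus began riper, and the longer one also ended riper. Its samples were taken 7 and 14 days after day 35, where those of 2012 were 10 days apart. From day 35 to day 42 of 2014, 85 gene models were higher (0.415%) and 29 lower (0.142%) by the same rule. After quantile normalization 50 were higher and 36 lower, and without replicate 2 of day 35 the numbers were 66 and 54. From day 35 to day 49, 64 were higher (0.313%) and 192 lower (0.938%). Without the fold minimum the excess turned, with 1618 higher and 959 lower. These 2 comparisons share the libraries of day 35, and neither shares a library with 2012.

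Most fallers of 2012 stood lower at the end of the longer interval of 2014 as well. Of the 172, 166 (96.5%) had a fitted change below 0 between day 35 and day 49, against 39.6% of all gene models tested, and 62 (36.0%) were called lower, against 0.938%. The 62 are 32.3% of the 192 gene models that fell in 2014. None of the 172 was called higher. The shares of all gene models tested are not matched for level: a faller had to stand above 0 on day 32, and gene models near 0 can hardly fall. Over the shorter interval, day 42 minus day 35, 120 (69.8%) had a change below 0, against 32.1% of all gene models tested, and 9 (5.23%) were called lower, against 0.142%. After quantile normalization 52.7% of all gene models had a change below 0 in the shorter interval, and 80.8% of the 172 did. Of the 53 risers, 40 (75.5%) had a change above 0 between day 35 and day 49 of 2014, against 57% of all gene models tested, and 10 (18.9%) were called higher, against 0.313%. Between day 35 and day 42, 39 (73.6%) had a change above 0, against 64.8%, and 16 (30.2%) were called higher, against 0.415%. Across all 20460 gene models, which are not independent replicates, the change of 2012 correlated at r = 0.57 with that of day 49 minus day 35 and at r = 0.24 with that of day 42 minus day 35.

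**Figure D5:**
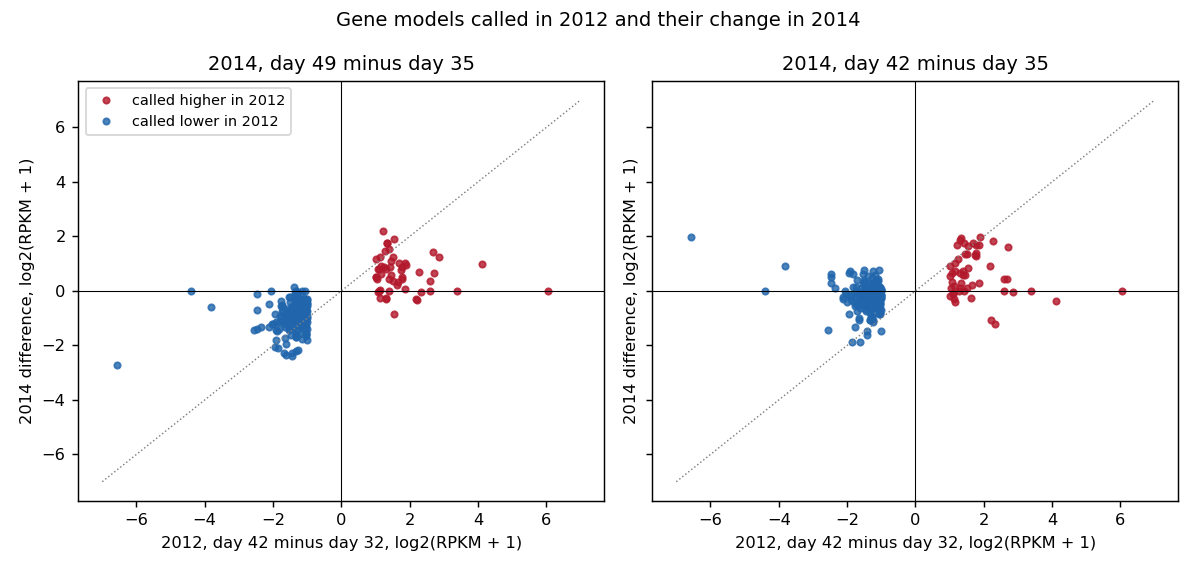
Each point is 1 of the 225 gene models called in 2012, with its 2012 change (day 42 minus day 32) on the horizontal axis and its 2014 change on the vertical axis, for day 49 minus day 35 on the left and day 42 minus day 35 on the right, all in log2(RPKM + 1); the dotted line marks equal change. On the left 166 of the 172 fallers lie below 0, and on the right 120 do.

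The difference between the seasons was tested directly. Day 42 minus day 35 of 2014 was subtracted from the 2012 change. The difference was positive in 17 gene models (0.0831%) and negative in 140 (0.684%, limma interaction contrast, same rule). Such a difference can come from the change of either season, and 51 of these 157 were also called in 2012 in the same direction. The median difference of all gene models was -0.08 log2. After quantile normalization the split was 29 and 46, so the excess of downward differences depends on the scaling. Without replicate 2 of day 32 of 2012 the total was 64, without replicate 2 of day 42 of 2012 it was 79, and without replicate 3 of day 42 or of day 35 of 2014 it was 97 and 83. Set against day 49 minus day 35, a comparison added after the data were seen, 3 gene models (0.0147%) passed in limma, with 1114 gene models (5.44%) under an unadjusted p of 0.05. This does not show that the 2 seasons changed alike. The 3 were VIT_18s0117g00430, VIT_18s0001g05000 and VIT_00s0239g00130, and each was listed at 0 in all 3 libraries of day 32 of 2012. They are named because so few passed. VIT_00s0239g00130 had 0, 14.6 and 17.8 RPKM on day 42 of 2012, and in 2014 it was listed at 0 on day 49, against 16.4, 16.3 and 16.2 RPKM on day 35.

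The runs differed in what they did in 2014. VIT_16s0100g summed to 67.6, 60.2 and 37.8 RPKM on day 49 of 2014, against 157, 140 and 128.5 RPKM on day 35, with no overlap. All 34 members had a change below 0, and 12 were called lower. On day 42 of 2014 the run stood at 135, 121 and 89.5 RPKM, which overlapped with day 35, with 32 members below 0 at a median of -0.28 log2 and none past the call. In the test of the season difference against this shorter interval 5 of the 34 passed. The level of the run differed by season as well: no library of 2014 at 50% thinning exceeded 314 RPKM, while libraries reached 1302 RPKM in 2013 and 1277 RPKM in 2012. VIT_05s0077g summed to 32.8, 67.7 and 21.0 RPKM on day 49, against 83.5, 109 and 79.8 RPKM on day 35, with all 5 members below 0 at a median of -1.14 log2 and none past the call, while on day 42 it stood at 117, 121 and 130 RPKM, above all libraries of day 35. VIT_10s0042g summed to 0.805, 1.18 and 0.492 RPKM on day 49, against 10.1, 10.6 and 6.56 RPKM on day 35, and VIT_16s0039g to 8.55, 9.14 and 5.24 RPKM, against 21.4, 19.6 and 18.0 RPKM, with 2 members of each called lower. The rising run VIT_04s0008g stood at 799, 352 and 337.5 RPKM on day 42 of 2014, against 291, 159 and 206 RPKM on day 35, with 4 members called higher, and at 280, 145 and 241.5 RPKM on day 49, which overlapped with day 35.

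In the interval before, day 32 minus day 21 of 2012, 230 gene models were higher (1.12%) and 405 lower (1.98%). Without the fold minimum the excess turned, with 4942 higher and 1833 lower, and after quantile normalization 161 were higher and 480 lower by the full rule. This interval shares the libraries of day 32 with the harvest comparison, so values are given side by side only. The median change of the 172 fallers in it was -0.02 log2, with 33 called higher and 31 lower. Members of VIT_16s0100g had a median change of 0.92 log2 in it, and their sum was 373, 507 and 278 RPKM on day 21. These values lay below all 3 libraries of day 32, and overlapped with day 42.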

How the data were processed

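Gene expression was measured by RNA-seq of pooled berry pericarp. Per the labels' protocols, libraries were made with a non-directional TruSeq kit, so reads from overlapping or antisense genes cannot be told apart. The authors deposited 1 table of RPKM values for 29971 gene models and 165 libraries, and TopHat2 2.0.6 and Cufflinks 2.0.2 are named in the submitters' processing notes. The genome build is not given in the sources used here. Steps between values under 0.3 RPKM gave relative depth, and absolute depth is unknown. An exact 0 may be a failed estimate: of 6043 gene models with a median over 20 RPKM in the 6 libraries, 12 had a 0.

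Groups came from the titles of the samples, with 3 libraries each. The labels place 3 rows of vines in each treatment, but nothing ties a replicate to a row or vine. P-values therefore reflect only how far replicate samples differ among themselves, which may be technical. For limma this spread was pooled over the 55 groups of the series, not taken from the compared libraries alone. Gene models at 1 RPKM or more in at least 3 libraries were tested (20460). log2(RPKM + 1) was fitted with limma 3.58.1 in R 4.3.3, with 1 mean for each of 55 groups, an intensity trend, 110 residual and 3.24 prior degrees of freedom, and Benjamini-Hochberg adjustment over all gene models tested. A call needed an adjusted p under 0.05 and a change of at least 1 log2, higher or lower. Fold changes are on the log2(RPKM + 1) scale, on which changes of low gene models come out too small. The fit was checked on simulated data. No pairing of samples by replicate number was seen, and none was used in the main fit.

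Gene models were to be named by the largest rises and falls among calls without overlap at 5 RPKM or more, and by the 5 highest levels. None of the gene model numbers matched the RefSeq gene table (0 of 29971), so lists by function, cell type markers and promoters could not be used, and at most 2 numbers are given in each direction, apart from counts of 5 or fewer. The members and lists were chosen with earlier results of these data known, and runs of neighbours were defined after the values were seen. Alternatives were another pseudocount (0.1), no filter, quantile normalization, the adjusted p alone, smaller fits, the replicate block and leaving out each library. No column outside the labelled libraries was in the table (0). The other thinning level and the unthinned vines that the labels describe were not analysed here, the first apart from its part in the shared spread.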

Additional observations from a re-analysis of the deposited data

Results flagged for a closer look

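The change from day 32 to day 42 of 2012 differed from that of day 35 to day 42 of 2014 in 157 gene models. The test was of the difference itself (limma, adjusted p under 0.05 and at least 1 log2). The 2012 change minus the 2014 change was positive in 17 of them and negative in 140. Against day 49 minus day 35 of 2014 the number was 3, all with a positive difference. In VIT_00s0239g00130 the larger part of it was a fall in 2014 (-4.11 log2), beside 2.74 log2 in 2012. The 2012 change of this gene model was not called (limma, adjusted p = 0.0577). Both values compare with libraries listed at 0, so their size depends on the pseudocount. The intervals are 10 days in 2012 and 7 and 14 days in 2014, and the part of their length in the difference was not tested.

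Among gene models also called in 2012 without overlap and at 5 RPKM or more on one of the days, VIT_18s0117g00430 had the largest upward season difference, 6.06 ± 1.06 log2 (SE, limma, adjusted p = 0.000330). It was listed at 0 in every library of 2014 at 50% thinning. VIT_18s0166g00060 had the largest downward one, -8.55 ± 2.08 log2 (SE, limma, adjusted p = 0.00926). It was listed at 0 on day 42 of 2012 and had 23.6, 133 and 127 RPKM on day 42 of 2014, against 53.1, 0 and 128 RPKM on day 35. Both are fitted differences that rest on values of exactly 0, so their size depends on the pseudocount and is not a fold.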

How the results depend on the processing

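The fallers outnumbered the risers in the harvest comparison under every alternative but the fit on the 6 libraries, which called 5 (4 higher, 1 lower). The pseudocount 0.1 gave 424 calls for the harvest comparison (99 higher, 325 lower), 372 and 535 for day 42 and day 49 minus day 35 of 2014, 372 for the season difference and 1290 for day 32 minus day 21. The adjusted p alone gave 1721, 1793, 2577, 636 and 6775 in the same order, and 15820 for ripening. Quantile normalization took the season difference to 75 (29 higher, 46 lower), and no filter took that against day 49 to 6. Leaving out single libraries gave 71 to 273 harvest calls, 74 to 133 and 150 to 371 calls for the 2014 intervals, 64 to 193 and 1 to 6 for the season differences, and a sugar difference of 1.21 to 2.11 g per 100 ml. The lowest counts came without replicate 2 of day 32 (71 and 64) and without replicate 1 of day 42 (74) and replicate 3 of day 49 of 2014 (150); without replicate 1 of day 35 of 2014 the last was 162. The cause was not tested. Under quantile normalization, which gives equal values to equal ranks, 4 of the 5 abundant gene models, none of them called, had a change of 0.00. VIT_16s0022g00960 changed sign there (0.04 log2) and without replicate 2 of day 42 (0.02, range without single libraries -0.07 to 0.02). A changed sign was also seen in VIT_08s0056g01600 without replicate 1 of day 42 (-0.02). The same was so for VIT_08s0056g01610 without replicate 3 of day 42 (0.01, range -0.19 to 0.01). Absolute depth is unknown, which limits what can be said of values near 0.

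The replicate block gave 229 harvest calls (56 higher, 173 lower), and for sugar an exact sign-flip p of 0.25 at the same difference of 1.74 g per 100 ml. Libraries of the same number did not deviate together (r of 0.01, -0.06 and -0.06). No pairing by number was thus seen, which does not show that there was none. No other count moved by over 1.5 times under the block.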
